A study of Homo sapiens with 12 samples.

Results

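PPP1R10, ZNF629, C6orf120 and ENC1 were chosen by their measured values: oxamate lowered each of them in parental MIAPaCa2 cells, and PPP1R10 and ZNF629 moved the other way in oxamate-resistant cells. They are 4 of the 26475 gene symbols in the table of counts, and all 4 were among the 14582 genes with enough counts to be tested. MIAPaCa2 is an established human pancreatic ductal adenocarcinoma (PDAC) line, and oxamate inhibits lactate dehydrogenase A, the enzyme that interconverts pyruvate and lactate. RNA-seq was performed in 4 groups of 3 libraries: parental cells given vehicle, parental cells given oxamate, oxamate-resistant cells given vehicle and oxamate-resistant cells given oxamate. The labels call vehicle-treated cells untreated and oxamate an LDHA inhibitor. The resistant cells were polyclonal populations that grew out of MIAPaCa2 cultures kept in oxamate, so that every resistant group had a long earlier exposure to the drug, also where it was given vehicle before RNA extraction. The length of the oxamate treatment before RNA-seq was not given in the sources used here.

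PPP1R10, also called PNUTS, is a nuclear regulatory subunit of protein phosphatase 1. Together with TOX4, WDR82 and a catalytic subunit it forms the PTW/PP1 complex. The complex removes phosphates from RNA polymerase II and its elongation factors. It also takes part in slowing the polymerase at gene ends, where transcription terminates. ENC1 is a BTB-kelch protein that binds actin, and proteins of this family commonly present substrates to the cullin 3 ubiquitin ligase. ZNF629 belongs to the large C2H2 zinc finger family of DNA-binding proteins, and C6orf120 encodes a small glycosylated, secreted protein; both are little studied.

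The libraries held 46698729 to 114222169 expected counts each, and every parental library was deeper than every resistant library, so that depth and line cannot be told apart. A floor of 3 counts corresponded to 0.0283 to 0.0581 CPM (counts scaled to a common library total), a limit that covers counting error only, and every value of the 4 genes lay above it. The carcinoma keratins KRT8, KRT18 and KRT19 were at 316 to 1600 CPM, while the epithelial adhesion genes EPCAM and CDH1 stayed at or near 0 (at most 0.0503 and 0.0387 CPM) and VIM was at 5920 to 10100 CPM. Markers of leukocytes (PTPRC), hepatocytes (ALB), acinar cells (PRSS1) and beta cells (INS) did not exceed 0.0504 CPM in any library, and PECAM1 reached 0.159 CPM and COL1A1 2.03 CPM. The summed level of the nuclear-retained RNAs MALAT1, NEAT1 and KCNQ1OT1 was 319 to 355.5 CPM in vehicle-treated parental cells. It was 553.8, 541.3 and 1179 CPM in oxamate-treated parental cells, 578.2, 530.0 and 1104 CPM in vehicle-treated resistant cells, and 1072 to 1395 CPM in oxamate-treated resistant cells. Replicate 3 of both middle groups therefore stood apart. Without these 2 libraries every direction of the 4 genes was the same, and of the zinc finger genes described below 247 in place of 249 fell in parental cells after oxamate. The part of nuclear-retained RNA in the results was not tested. Nothing in the labels says that replicates were separate cultures, so p-values measure the spread between these libraries, which may be technical. In bulk RNA, fewer cells that express a gene and less of its RNA per cell cannot be told apart.

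The promoters are shown because the 4 genes were lowered together. By RefSeq on GRCh38.p14, PPP1R10 lies at chr6:30600413-30617243 on the minus strand, ZNF629 at chr16:30778456-30787205 on the minus strand, C6orf120 at chr6:169702126-169706360 on the plus strand and ENC1 at chr5:74627409-74640728 on the minus strand. The 250 bases before the annotated start of PPP1R10 (chr6:30617244-30617493, minus strand), ZNF629 (chr16:30787206-30787455, minus strand) and C6orf120 (chr6:169701876-169702125, plus strand) follow, each read 5′ to 3′ on the strand of the gene. Capitals mark the motifs that were searched for on both strands.
PPP1R10: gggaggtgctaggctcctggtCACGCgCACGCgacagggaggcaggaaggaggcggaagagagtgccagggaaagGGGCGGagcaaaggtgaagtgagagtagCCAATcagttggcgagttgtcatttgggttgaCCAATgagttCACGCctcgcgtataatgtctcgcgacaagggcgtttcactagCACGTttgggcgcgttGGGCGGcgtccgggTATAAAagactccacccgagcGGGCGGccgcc
ZNF629: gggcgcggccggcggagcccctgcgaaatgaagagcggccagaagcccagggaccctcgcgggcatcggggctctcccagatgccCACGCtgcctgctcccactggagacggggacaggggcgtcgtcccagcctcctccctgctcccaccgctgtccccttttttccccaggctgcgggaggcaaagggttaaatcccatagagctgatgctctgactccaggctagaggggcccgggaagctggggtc
C6orf120: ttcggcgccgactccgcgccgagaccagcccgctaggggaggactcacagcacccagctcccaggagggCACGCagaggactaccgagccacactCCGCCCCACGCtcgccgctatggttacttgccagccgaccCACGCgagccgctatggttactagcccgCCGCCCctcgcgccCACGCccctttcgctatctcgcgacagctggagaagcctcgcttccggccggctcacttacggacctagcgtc
The search covered the NF-Y box spelled CCAAT, the Sp1 box spelled GGGCGG, the core promoter motif TATAAA and the E-box spelled CACGTG. It also covered the hypoxia response core, spelled either ACGTG or, in its other form, GCGTG, the cyclic AMP response element spelled TGACGTCA and the composite site of ATF4 with its partner spelled TGATGNAA. ACGTG is contained in CACGTG, and a match to any of them is a run of letters, not evidence of binding.

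The promoter of PPP1R10 held CCAAT 147 and 115 bases before the start, GGGCGG at 175, 46 and 11, TATAAA at 32, ACGTG on the opposite strand at 62, and GCGTG on the opposite strand at 229, 223 and 105. ZNF629 had a single match, GCGTG on the opposite strand at 165, and C6orf120 had GGGCGG at 155 and 87 and GCGTG at 181, 149, 115 and 73, all on the opposite strand. GCGTG was thus the motif that all 3 windows shared, and 31.9% of 27305 promoter windows of the same length held it. Over the same windows CCAAT was present in 33.0%, GGGCGG in 42.3%, TATAAA in 11.1%, ACGTG in 18.7%, CACGTG in 6.49%, TGACGTCA in 1.77% and TGATGNAA in 3.19%. The windows were rich in G and C, with 61.2% for PPP1R10, 68.4% for ZNF629 and 68.8% for C6orf120 against a median of 58.0% over all promoters.

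PPP1R10 had the largest fold change of the 4 genes in parental cells, by which it was chosen. In vehicle-treated parental cells the 3 libraries had 7.68, 7.13 and 7.27 CPM, scaled by the trimmed mean of M-values (TMM). Oxamate-treated parental cells had 1.86, 2.09 and 1.97 CPM, from 104, 110 and 136 expected counts. The mean of the parental groups went from 7.36 ± 0.288 to 1.98 ± 0.117 CPM (SD, n = 3). The libraries of vehicle-treated resistant cells stood at 23.6, 23.4 and 25.2 CPM, and those of oxamate-treated resistant cells at 33.8, 32.5 and 37.0 CPM. The order of the group means from high to low was resistant with oxamate, resistant with vehicle, parental with vehicle and parental with oxamate. No 2 groups overlapped, but the gene was chosen by these values, and the share of all genes without overlap was not counted. The lowest and the highest group means, 1.98 and 34.4 CPM, were both measured under oxamate.

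ZNF629 had the same order of groups over a smaller range. Its levels were 31.4, 30.6 and 31.5 CPM in vehicle-treated and 17.8, 17.2 and 18.0 CPM in oxamate-treated parental cells. In resistant cells it had 55.6, 54.4 and 54.8 CPM after vehicle and 63.4, 61.3 and 60.8 CPM after oxamate. No neighbouring groups in this order overlapped, with the same limit as for PPP1R10. The means were 31.2 ± 0.499, 17.6 ± 0.435, 54.9 ± 0.608 and 61.9 ± 1.37 CPM (SD, n = 3).

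C6orf120 was lowered in oxamate-treated parental cells and was at similar levels elsewhere. Vehicle-treated parental libraries had 42.8, 43.4 and 44.3 CPM, and oxamate-treated parental libraries 23.1, 22.1 and 23.1 CPM. Resistant libraries had 50.9, 51.0 and 52.8 CPM after vehicle and 50.5, 51.4 and 49.8 CPM after oxamate. The 2 resistant groups overlapped and lay above both parental groups. The spread within a group was small throughout, with SDs of 0.569 to 1.04 CPM.

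ENC1 differed from the other 3 genes in being highest in parental cells. Vehicle-treated parental cells had 57.9, 55.8 and 58.6 CPM, and oxamate-treated parental cells 31.0, 29.5 and 30.1 CPM. Its levels in resistant cells were 17.2, 17.2 and 16.2 CPM after vehicle and 16.6, 16 and 15.7 CPM after oxamate. The resistant groups overlapped, and both lay below the lowest parental library, so that oxamate-treated parental cells were intermediate. The group means were 57.4 ± 1.46, 30.2 ± 0.79, 16.9 ± 0.569 and 16.1 ± 0.42 CPM (SD, n = 3).

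**Figure D1:**
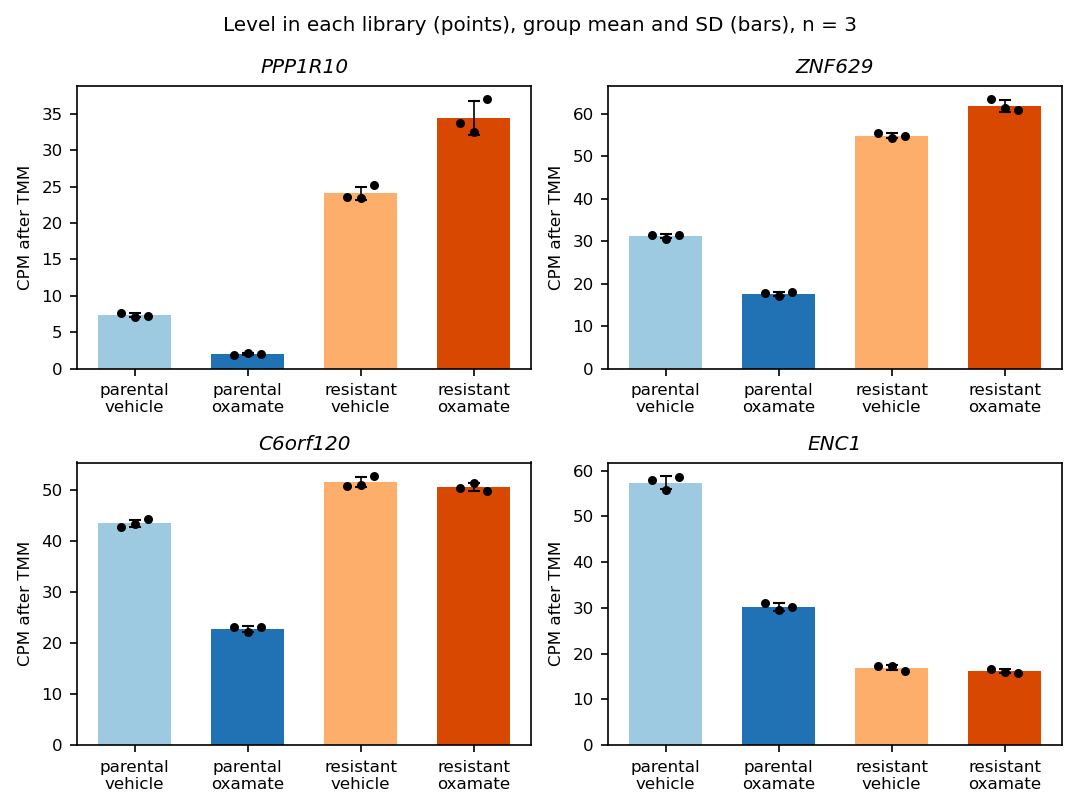
TMM-scaled CPM of PPP1R10, ZNF629, C6orf120 and ENC1 in the 12 libraries. Each point is 1 library, the bars give the group mean and the error bars the SD of 3 libraries. Oxamate-treated parental libraries are the lowest of the 4 groups for PPP1R10, ZNF629 and C6orf120, whereas for ENC1 both resistant groups lie below them.

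Levels of different genes can be set side by side only per length. Per kilobase of the longest principal transcript, vehicle-treated parental cells had 16.3 CPM of C6orf120, 10.1 of ENC1, 5.12 of ZNF629 and 1.63 of PPP1R10, against a median of 7.03 over the genes with a matched transcript. In vehicle-treated resistant cells the order was C6orf120 at 19.3, ZNF629 at 9.02, PPP1R10 at 5.32 and ENC1 at 2.98 CPM per kilobase. ENC1 thus moved from the second to the last place between the lines and PPP1R10 from the last to the third.

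The fall in parental cells is the value that selected the genes, so it is given with no test. Fitted with edgeR, PPP1R10 fell by 1.90 on the log2 scale (SE 0.078), a level 3.73-fold lower. C6orf120 had a log2 fold change of -0.93 (SE 0.0305), ENC1 of -0.92 (SE 0.0339) and ZNF629 of -0.82 (SE 0.0316), which are 1.91-fold, 1.90-fold and 1.77-fold lower levels. The 95% intervals of C6orf120 and ENC1 overlapped almost fully, at -0.997 to -0.868 and -0.997 to -0.853. Over all genes tested, 30.4% were lower and 28.3% higher in oxamate-treated parental cells at a Benjamini-Hochberg adjusted p under 0.05. With scaling by library size alone the totals were 5922 lower and 2853 higher, in place of 4439 and 4124. Ranked by their fold change among the 12426 genes averaging 1 CPM or more, PPP1R10 had rank 5 from the lowest. C6orf120 had rank 141, ENC1 rank 144 and ZNF629 rank 205. Among all 14582 genes tested the ranks were 26 for PPP1R10, 235 for C6orf120, 240 for ENC1 and 330 for ZNF629.

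In resistant cells given oxamate, against those given vehicle, none of the 4 genes had a fall of the size measured in parental cells. Whether the resistant cells were kept without the drug before this treatment was not given in the sources used here. The choice of the genes looked at the responses of both lines, so these values too are a description. PPP1R10 had a log2 fold change of 0.52 (SE 0.0493), a 1.43-fold higher level, and ZNF629 of 0.17 (SE 0.0281), a 1.13-fold higher level. C6orf120 had a log2 fold change of -0.03 (95% interval -0.0904 to 0.0324), and its sign turned, to 0.0014, with scaling by library size alone. The value of ENC1 was -0.07 (95% interval -0.155 to 0.0173), so that both intervals include 0 and neither reaches the fall in parental cells. In this comparison 9.01% of all genes tested were higher and 12.5% lower, and upper-quartile scaling turned that split to 1679 higher and 1269 lower, from 1314 and 1825.

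**Figure D2:**
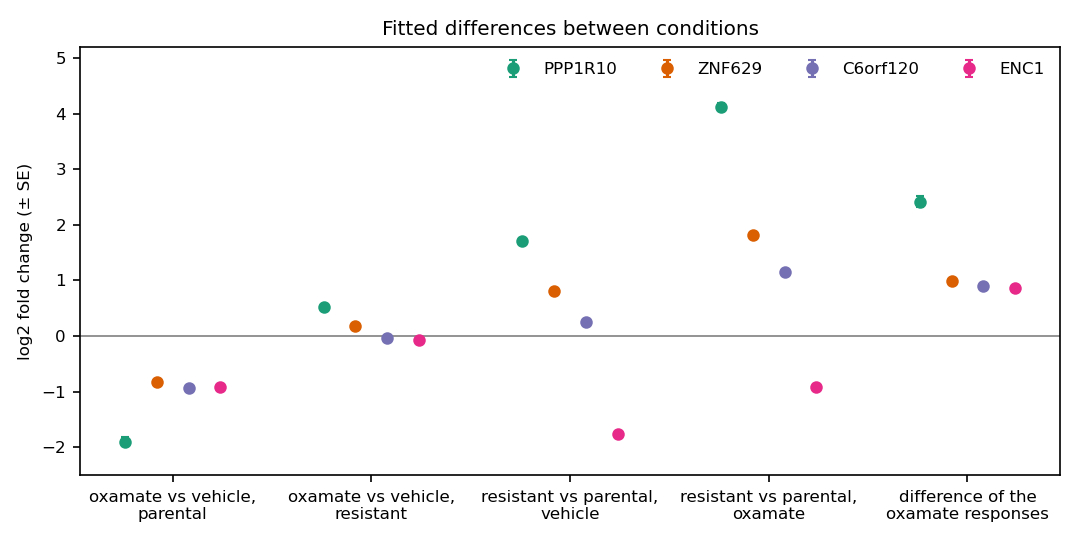
Fitted log2 fold changes of the 4 genes in the comparisons between conditions, with their standard errors from edgeR. In parental cells all 4 lie below 0, between -1.90 and -0.82, while in resistant cells they lie between -0.07 and 0.52.

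The difference between the 2 responses, resistant minus parental, was 2.42 for PPP1R10 (SE 0.0928), 0.99 for ZNF629 (SE 0.0423), 0.90 for C6orf120 (SE 0.042) and 0.86 for ENC1 (SE 0.0529) on the log2 scale. These differences follow from the choice of the genes and are a description. Of all genes tested, 22.7% had a positive and 21.4% a negative difference at an adjusted p under 0.05, and with scaling by library size alone 5050 positive and 1756 negative differences were called in place of 3313 and 3125. PPP1R10 had rank 3 from the highest difference of those 12426 genes, and rank 27 of all 14582 genes tested.

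**Figure D3:**
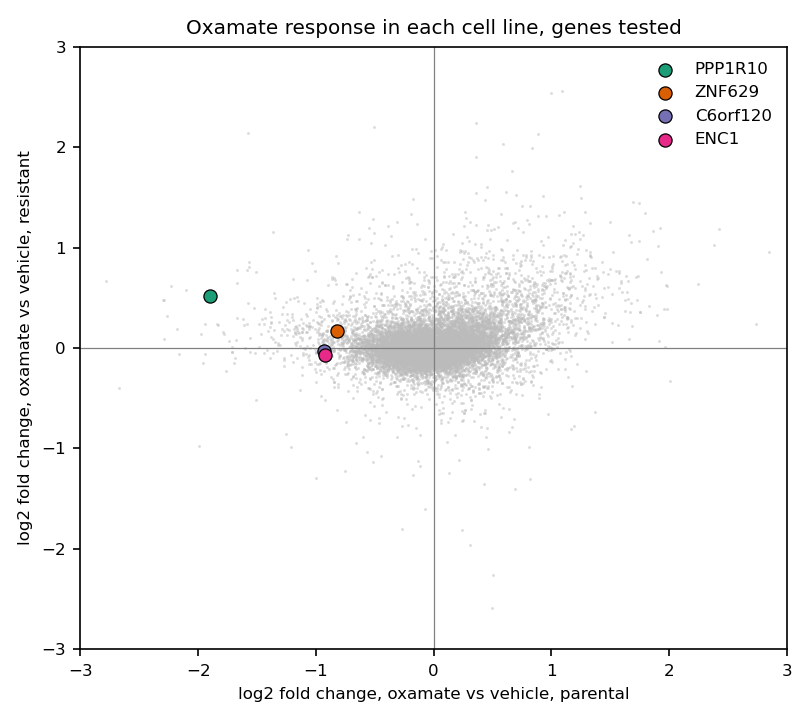
Log2 fold change after oxamate in resistant cells (vertical axis) against that in parental cells (horizontal axis); each grey point is 1 of 14558 genes within 3 log2 units on both axes, and the 4 named genes are marked. PPP1R10 stands to the left of most genes and above 0, ZNF629 slightly above 0, and C6orf120 and ENC1 close to 0 on the vertical axis.

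Resistant cells were compared with parental cells after vehicle alone, a comparison whose libraries all belong to the responses that selected the genes, so that it is given with no test. PPP1R10 was 3.26-fold higher in resistant cells, with a log2 fold change of 1.71 (SE 0.0543). ZNF629 was 1.76-fold higher, at 0.82 (SE 0.0286). C6orf120 was 1.19-fold higher, at 0.25 (SE 0.0283), and at 0.47 with scaling by library size alone. ENC1 was 3.40-fold lower, at -1.76 (SE 0.036). The background was broad: 38.4% of all genes tested were higher and 37.3% lower in resistant cells, and library size alone gave 8540 higher and 2769 lower genes in place of 5602 and 5436. It moved the median of all genes by 0.219 on the log2 scale, and the 3 positive values and the negative value kept their signs under it. ENC1 had rank 11 from the lowest of those 12426 genes, and PPP1R10 rank 182 from the highest. Among all 14582 genes tested these ranks were 43 and 443.

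Under oxamate the lines were further apart for PPP1R10, ZNF629 and C6orf120 and closer for ENC1. Resistant cells had 17.5-fold more PPP1R10 than parental cells (log2 fold change 4.13, SE 0.0691), 3.50-fold more ZNF629 (1.81) and 2.22-fold more C6orf120 (1.15). ENC1 was 1.88-fold lower in resistant cells, at -0.91, and at -0.58 with scaling by library size alone. These values combine the comparisons above and were not tested.

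The partners of PPP1R10 in the PTW/PP1 complex are given by their own values, since PPP1R10 was chosen for the size of its fall. WDR82, the subunit that binds the polymerase tail, had 92.4, 91.2 and 90.4 CPM in vehicle-treated parental cells. After oxamate these cells had 72.5, 72.1 and 69.4 CPM of WDR82. It fell by 0.36 on the log2 scale (SE 0.0266, adjusted p = 1.88e-08), and in resistant cells its log2 fold change was -0.05 (adjusted p = 0.176). The difference between these responses passed the test (0.30, adjusted p = 1.00e-05). Between the vehicle-treated lines WDR82 was at 91.3 CPM in both, with a log2 fold change of -0.00078 (adjusted p = 0.98), but it was called higher in resistant cells with library size alone.

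TOX4, another subunit of the complex, moved in the opposite direction to WDR82. Its level was 90.7, 91.9 and 88.6 CPM in vehicle-treated and 103, 103 and 99.4 CPM in oxamate-treated parental cells, a rise of 0.17 on the log2 scale (SE 0.0268, adjusted p = 5.72e-05). Resistant cells had means of 82.6 CPM after vehicle and 82.1 CPM after oxamate, and the responses of the lines differed by -0.18 (adjusted p = 0.00147), a call that ended with library size alone. TOX4 was lower in resistant than in parental cells after vehicle (-0.13, adjusted p = 0.000397), but this sign turned with library size alone, which raised the median of all genes by 0.219.

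The catalytic subunits are PPP1CA, PPP1CB and PPP1CC, whose CPM were not scaled by length. In parental cells PPP1CB rose by 0.10 on the log2 scale after oxamate (210.7 to 225.4 CPM, adjusted p = 0.0152), a call that ended with library size alone. PPP1CA was at 266.3 and 272.3 CPM (adjusted p = 0.335) and PPP1CC at 381.9 and 365.9 CPM (adjusted p = 0.0875), and neither passed the test. In resistant cells PPP1CC had a log2 fold change of -0.11 after oxamate (adjusted p = 0.0207), a call that ended with library size alone and with upper-quartile scaling. Between the vehicle-treated lines PPP1CC was lower in resistant cells by -0.47 (adjusted p = 8.06e-10) and PPP1CA by -0.29 (adjusted p = 7.61e-08). Of the 5 partners 2 rose and 1 fell in parental cells after oxamate, near the shares of all genes (28.3% and 30.4%), and 1 rose and 2 fell with library size alone. After vehicle 3 were lower and 0 higher in resistant cells, beside 37.3% and 38.4% of all genes, but 3 were higher and 2 lower with library size alone and 1 higher and 2 lower with upper-quartile scaling.

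Other regulatory subunits of protein phosphatase 1 rose and fell about as often as all genes in parental cells. Of 39 listed genes 32 were tested, of which 10 rose and 10 fell in oxamate-treated parental cells, shares of 31.2% each against 28.3% and 30.4% of all genes. With library size alone 4 rose and 12 fell. Their median log2 fold change was 0.07, where that of all genes was 0.0030. In resistant cells given oxamate 3 rose and 6 fell, 9.38% and 18.8% against 9.01% and 12.5% of all genes, compared with 4 and 3 with upper-quartile scaling. After vehicle 9 were higher and 11 lower in resistant cells, 28.1% and 34.4% against 38.4% and 37.3% of all genes, but 20 and 6 with library size alone and 12 and 10 with upper-quartile scaling. The genes named here and from the lists below had the smallest p of their list per direction in parental cells. They are therefore extremes of their lists, not typical members. PPP1R3E, a glycogen-targeting subunit, rose by 1.09 from 3.98 to 8.40 CPM (adjusted p = 1.06e-07). PPP1R15A, which directs the phosphatase to the translation factor eIF2-alpha, rose by 0.36 from 217.3 to 278.7 CPM (adjusted p = 6.30e-08). PPP1R15A then had a log2 fold change of -0.18 in resistant cells (adjusted p = 0.00118). PPP1R12A, the myosin-targeting subunit, and PPP1R8, a nuclear inhibitor of the phosphatase, each had a value of -0.21 in parental cells (adjusted p = 2.14e-05 and 0.000223).

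Of transcription elongation and termination factors all 38 listed genes were tested, and 22 fell and 3 rose in oxamate-treated parental cells. These are 57.9% and 7.89%, beside 30.4% and 28.3% of all genes, and the difference in share was not tested. Their median log2 fold change was -0.12, and with library size alone 27 fell and 1 rose. The factors named next are those with the smallest p in each direction. RBBP6, a subunit of the cleavage and polyadenylation machinery, had 33.1 CPM in vehicle-treated and 19.7 CPM in oxamate-treated parental cells, a change of -0.74 (adjusted p = 2.71e-10). RBBP6 was also higher in resistant than in parental cells after vehicle (0.63). In resistant cells it was higher after oxamate than after vehicle (0.21, adjusted p = 0.000531), and both signs were those of PPP1R10. HEXIM1, the inhibitor of the elongation kinase P-TEFb, went from 121.1 to 81.5 CPM (-0.57, adjusted p = 1.17e-09) and its value in resistant cells was 0.03 (adjusted p = 0.503). CPSF1 and SUPT5H rose by 0.16 each (adjusted p = 6.59e-05 and 0.000907).

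In resistant cells given oxamate 6 of these 38 factors rose and 3 fell, 15.8% and 7.89% beside 9.01% and 12.5% of all genes. Their response was more positive than that of parental cells for 21 and more negative for 3, 55.3% and 7.89% beside 22.7% and 21.4% of all genes. The split between the lines after vehicle, 12 higher and 19 lower in resistant cells (31.6% and 50%, beside 38.4% and 37.3% of all genes), turned to 26 higher and 5 lower with library size alone and to 15 and 12 with upper-quartile scaling.

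The BTB-kelch family, to which ENC1 belongs, was listed, without ENC1 itself, together with the cullin 3 ubiquitin ligase. Of 51 genes 38 were tested, and 19 fell and 5 rose in oxamate-treated parental cells, 50% and 13.2% beside 30.4% and 28.3% of all genes, with a median log2 fold change of -0.20. KLHL18, named for its small p, had 16.2, 16.3 and 16.1 CPM after vehicle and 9.32, 9.37 and 9.11 CPM after oxamate. Its change of -0.81 (adjusted p = 1.56e-10) was close in size to that of ENC1 and well beyond the median of the list. Between the vehicle-treated lines, however, KLHL18 was at 16.2 and 16.02 CPM (adjusted p = 0.674). CUL3, the cullin itself, fell from 60.1 to 42.6 CPM, by 0.50 on the log2 scale (adjusted p = 5.26e-09), and was at 68.6 CPM in vehicle-treated resistant cells. KLHL21 rose by 0.29 (adjusted p = 1.15e-06) and KLHL28 by 0.23 (adjusted p = 0.000367).

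In resistant cells given oxamate 2 BTB-kelch family genes rose and 6 fell, 5.26% and 15.8% beside 9.01% and 12.5% of all genes. After vehicle 15 of the 38 were higher and 10 lower in resistant cells, 39.5% and 26.3% beside 38.4% and 37.3% of all genes, and 25 and 5 with library size alone and 20 and 7 with upper-quartile scaling. KLHL21 had a value of -0.98 between the lines, the direction of ENC1.

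Numbered zinc finger genes, the family of ZNF629, formed the longest list. Of 529 such genes 448 were tested, and 249 fell and 47 rose in oxamate-treated parental cells, that is 55.6% and 10.5% beside 30.4% and 28.3% of all genes, with a median log2 fold change of -0.24. ZNF629 itself was left out of the list, and the genes named next are those with the smallest p in each direction. ZNF398 went from 9.71 to 4.28 CPM (-1.18, adjusted p = 1.80e-10) and ZNF830 from 11.2 to 5.21 CPM (-1.11, adjusted p = 2.52e-10). ZNF395 and ZNF511 rose by 0.54 and 0.51 (adjusted p = 1.29e-10 and 1.65e-08).

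In resistant cells given oxamate 74 zinc finger genes rose and 19 fell, 16.5% and 4.24% beside 9.01% and 12.5% of all genes. After vehicle 301 of the 448 were higher and 62 lower in resistant cells, 67.2% and 13.8% beside 38.4% and 37.3% of all genes, with a median of 0.41 where all genes had 0.0251. Of the 249 that fell in parental cells, 49 (19.7%) were higher, as was ZNF629, and 10 (4.02%) lower in resistant cells after oxamate. Of the 4439 genes of all kinds that were lower in parental cells, 353 (7.95%) were higher and 819 (18.5%) lower in resistant cells. Of the 22 elongation and termination factors that fell, 5 (22.7%) were then higher and 2 (9.09%) lower. In the BTB-kelch list 0 of 19 were then higher and 5 (26.3%) lower, and among PP1 regulatory subunits 1 of 10 each way. The majority direction of the zinc finger genes was the same with the other 3 scalings in all 3 comparisons. The lists were drawn up with earlier results of these data known, and their counts are a description.

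**Figure D4:**
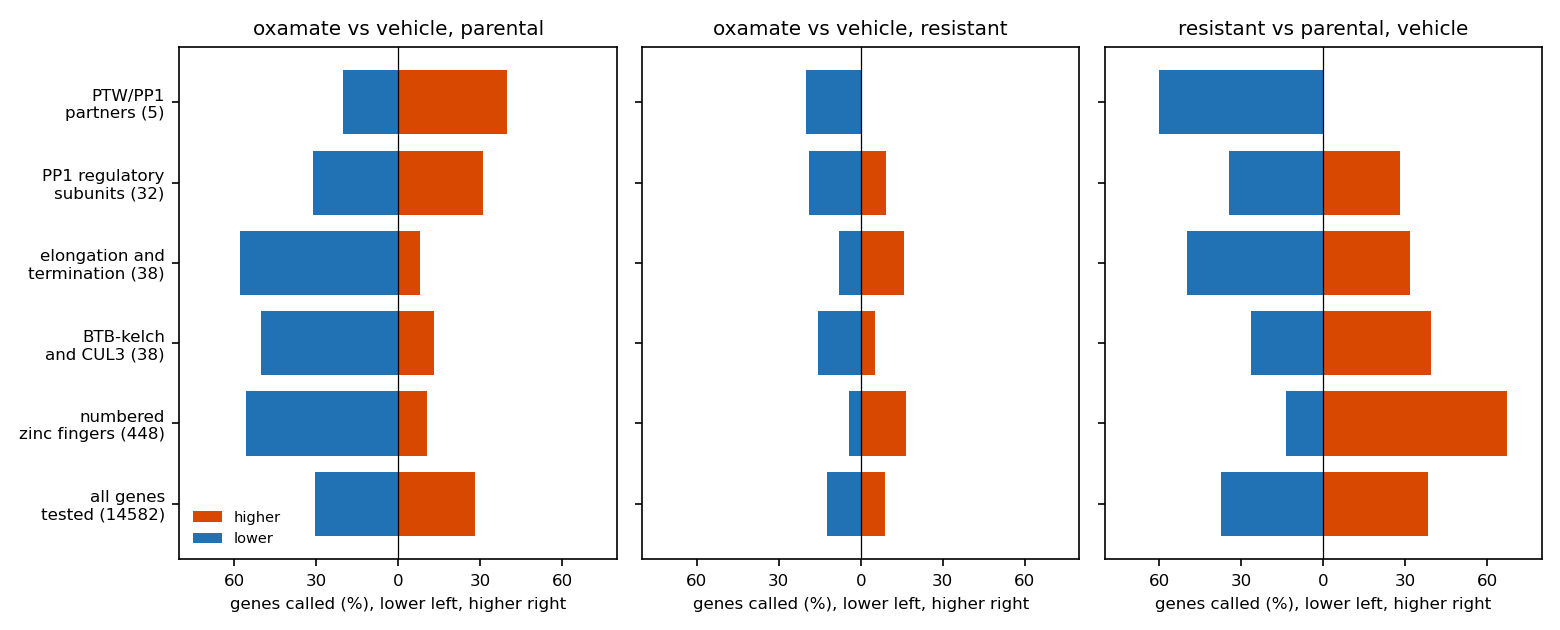
Share of tested genes called higher or lower after oxamate in parental cells, after oxamate in resistant cells and in resistant against parental cells after vehicle, for the gene lists and for all genes. Of the numbered zinc finger genes 55.6% fell in oxamate-treated parental cells, against 30.4% of all genes; between the lines the split of the PTW/PP1 partners, of the PP1 regulatory subunits and of the elongation and termination factors turned with library size alone.

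The tested genes beside the 4 loci had log2 fold changes of -0.22 to 0.56 in parental cells after oxamate, other than LINC00242. LINC00242 was near the floor of counting. Beside PPP1R10, MRPS18B starts 597 bases away on the opposite strand and encodes a mitochondrial ribosomal protein. It had 64.8 CPM in vehicle-treated and 58.5 CPM in oxamate-treated parental cells (-0.15, adjusted p = 0.000287). ABCF1, on the other side, had a log2 fold change of -0.22 (adjusted p = 3.63e-06), and ATAT1 of 0.13 (adjusted p = 0.0942). Between the vehicle-treated lines ABCF1 (-0.03) and MRPS18B (-0.03) did not pass the test (adjusted p = 0.298 and 0.346). Around ZNF629, RNF40, PHKG2 and BCL7C had log2 fold changes of 0.06, -0.02 and 0.12 in parental cells, and none of them passed the test (adjusted p = 0.0871, 0.736 and 0.149). Between the vehicle-treated lines BCL7C was lower in resistant cells (-0.54, adjusted p = 4.62e-06). RNF40 (0.11, adjusted p = 0.00226) and PHKG2 (0.19, adjusted p = 0.00593) were higher there.

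C6orf120 overlaps PHF10, which lies on the opposite strand, and the kit did not mark the strand, so that reads from the overlap cannot be assigned with certainty. PHF10, a chromatin remodelling subunit, rose from 39.96 to 44.94 CPM in oxamate-treated parental cells (0.17, adjusted p = 0.00118), and so moved against C6orf120.

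WDR27, whose start lies 97 bases from that of C6orf120 on the opposite strand, rose by 0.56 (5.67 to 8.33 CPM, adjusted p = 0.00153). THBS2 was also higher (0.44, adjusted p = 0.0145), and ERMARD was not called (-0.05, adjusted p = 0.524). LINC00242 had a value of -1.46 (adjusted p = 0.0118) at means of 0.196 and 0.0685 CPM, near the floor of counting. Near ENC1, GFM2 was at -0.06 (adjusted p = 0.0914) and NSA2 rose by 0.10 (adjusted p = 0.011). Between the vehicle-treated lines GFM2 was at -0.10 (adjusted p = 0.00776) and NSA2 at -0.17 (adjusted p = 9.74e-05). MIR877, MIR4519, LINC01331 and LINC01333 had 0 counts in every library and were not tested.

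**Figure D5:**
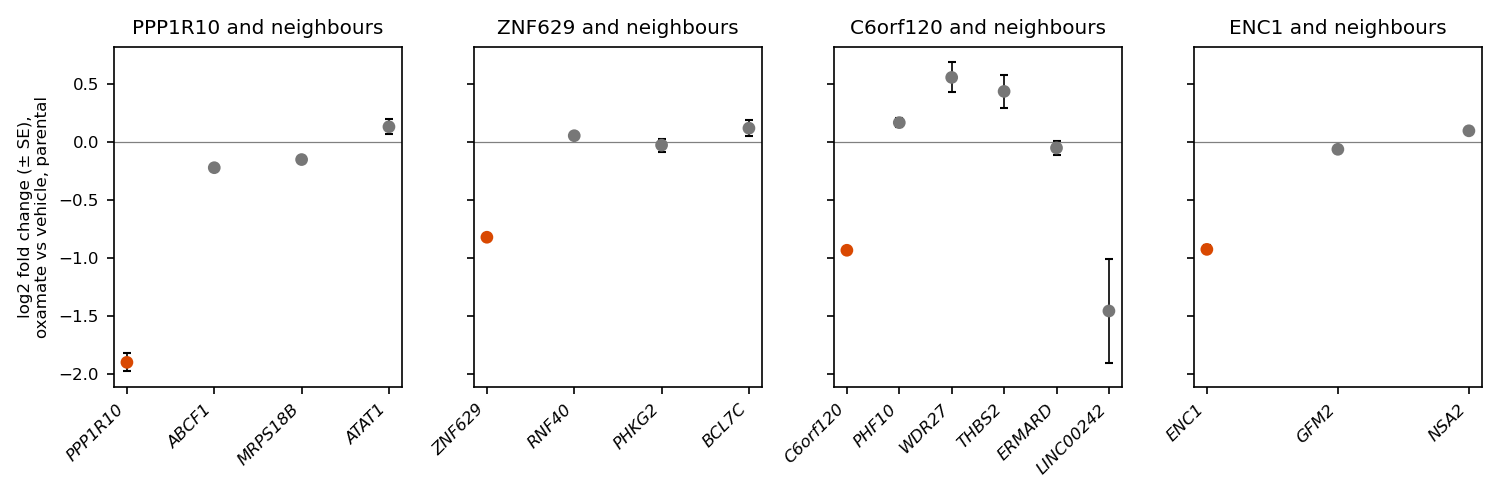
Log2 fold change after oxamate in parental cells, with its standard error, for each of the 4 genes and the tested neighbours named in the text. The 4 genes lie at -1.90 to -0.82, whereas the neighbours shown other than LINC00242, which is near the floor of counting, lie between -0.22 and 0.56.

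Fractional expected counts arise where reads fit more than 1 gene. PPP1R10 and ZNF629 had whole counts in all 12 libraries, C6orf120 had fractional counts in 12 and ENC1 in 11 of the 12.

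The gene models of ENC1, C6orf120 and ZNF629 hold few coding exons, and that of PPP1R10 many. By GENCODE 29, which matched 12686 (87.0%) of the genes tested, C6orf120 and ENC1 have 1 coding exon, ZNF629 has 2 and PPP1R10 has 18, where the median gene has 8. Over all matched genes, 320 of 732 genes with 1 coding exon (43.7%) and 3850 of 11954 genes with 2 or more (32.2%) were lower in oxamate-treated parental cells. Higher levels were called for 18.4% and 29%. The 3′ untranslated regions were longer than the median of 1050 bases in all 4 genes, at 1152 bases in PPP1R10, 1824 in C6orf120, 2622 in ENC1 and 3272 in ZNF629. The pentamer ATTTA is found in many short-lived mRNAs. It occurred 12 times there in ENC1, 5 times in C6orf120, 2 times in ZNF629 and 1 time in PPP1R10, against a median of 2. These counts were not scaled by the length of the regions, so they cannot be compared with the median as densities.

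The genes whose profile over the 12 libraries was most like each of the 4 were ranked by the root mean square (RMS) difference of their centred log2 CPM, over the other 12425 genes averaging 1 CPM or more. The 12 libraries fall into 4 groups, so likeness rests mainly on the group means. Closest to PPP1R10 were ZFP3 (RMS 0.162), LCMT2 (0.173), ZNF658 (0.23), MAP10 (0.239) and CHAC1 (0.287), where the median gene had 1.61. ZFP3 went from 0.842 to 0.192 CPM in parental cells after oxamate and from 3.26 to 4.86 CPM in resistant cells. CHAC1, which degrades glutathione, went from 2.56 to 1.12 CPM and from 11.7 to 13.4 CPM.

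For ZNF629 the closest were C7orf49 (0.0622), ZSCAN25 (0.0635), RLF (0.066), TIGD3 (0.0681) and ZBTB9 (0.0722), against a median of 0.746. C6orf120 was most like MESDC1 (0.0639), CCDC71L (0.0658), NOL6 (0.0669), FEM1A (0.0672) and C12orf65 (0.0711), with a median of 0.525. ENC1 had less close matches in THSD1 (0.226), NIPAL4 (0.228), OASL (0.236), BMP6 (0.236) and LONRF3 (0.251), with a median of 0.741. The profile of THSD1 went from 36.3 to 26.9 CPM in parental cells and from 15.6 to 11.8 CPM in resistant cells, so that it was lower after oxamate in both lines.

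Among the 4 genes themselves ZNF629 and C6orf120 were the closest pair (RMS 0.318) and PPP1R10 and ENC1 the most distant (2.14). PPP1R10 was at 0.875 from ZNF629 and 1.15 from C6orf120, and ENC1 at 1.02 from C6orf120 and 1.32 from ZNF629. The fall in parental cells was thus the feature common to all 4 by choice, while their levels in resistant cells went in different directions.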

How the data were processed

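RNA from the 12 libraries was enriched with oligo(dT) beads and prepared with a NEBNext Ultra kit. The authors deposited expected counts per gene symbol, not normalized; the submitters' processing notes name Bowtie2 2.1.0, RSEM 1.2.15 and hg38. The study's methods also name other mapping and counting tools; the 11.6% of values that are not whole are of the kind RSEM gives. ATAC-seq and metabolite data were not analysed here.

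Counts were rounded and passed to edgeR 4.0.16 (R 4.3.3), with the default low-count filter (14582 of 26475 genes left), TMM, and glmQLFit with glmQLFTest on the 4 group means, adjusted by Benjamini-Hochberg over all genes tested. The fits were tested on simulated data with known changes. Those data had the same spread for every gene and few changed genes, so they do not check the scaling or the spread of these libraries. Members and lists were chosen with earlier results of these data known. Since the choice looked at both responses, all comparisons of the 4 genes were given without p.

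Named genes were the 4 members, all PTW/PP1 partners, CUL3, from each other list up to 2 genes with the smallest p per direction in parental cells, the genomic neighbours and the 5 most similar profiles per member, computed on log2(CPM + 0.1). Alternatives were other size factors, other count filters, unrounded counts, a replicate block, limma-voom (limma 3.58.1), DESeq2 1.42.0, only the groups compared, the fold threshold of 1.5 used in the study, and each library left out. The fit without replicate 3 of oxamate-treated parental and of vehicle-treated resistant cells, each the richest of its group in nuclear-retained RNA, and all scalings of the lists, were added after seeing the data. Coordinates and promoters are from RefSeq (GRCh38.p14) and gene models from GENCODE 29; the files hold no positions. RefSeq promoters matched 3 of the 4 genes. A neighbouring gene is not reported here.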

Additional observations from a re-analysis of the deposited data

Results flagged for a closer look

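The response to oxamate differed between the lines for the 4 genes, resistant minus parental on the log2 scale, by 2.42 in PPP1R10, 0.99 in ZNF629, 0.90 in C6orf120 and 0.86 in ENC1. The genes were chosen on these responses, so no test is attached to the differences. Among the PTW/PP1 partners the responses differed by -0.18 in TOX4 (edgeR, adjusted p = 0.00147), and this call ended with library size alone. TOX4 had a log2 fold change of 0.17 in parental cells after oxamate. WDR82 differed by 0.30 (edgeR, adjusted p = 1.00e-05), with a log2 fold change of -0.36 in parental cells after oxamate. The causes were not tested.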

How the results depend on the processing

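For the 4 genes, 455 of 456 alternative values over 20 results kept their direction and their side of an adjusted p of 0.05, which is not used as a test here. The exception was C6orf120 after oxamate in resistant cells, at 0.0014 with library size alone. Counts over all genes moved more. The study's thresholds (unadjusted p under 0.05 and a fold over 1.5) were applied here to the edgeR fit. The study applied them to DESeq2, so these are not its counts. With them 829 genes were higher and 611 lower in parental cells after oxamate, and 325 and 40 in resistant cells after oxamate. Resistant against parental cells gave 2511 and 896, and the difference between responses 808 and 429. Library size alone gave 1179 lower genes in resistant cells after oxamate, 8540 higher and 2769 lower between the lines, and 5050 and 1756 in the difference. With 1 library left out in turn, resistant cells after oxamate had 666 to 1731 higher and 1129 to 2158 lower genes. The lowest counts came without vehicle-treated resistant replicate 2 (666 and 1129), and counts also moved by over 1.5 times without replicate 1 of that group (674 and 1176), oxamate-treated resistant replicate 1 (815 higher) and replicate 3 (701 and 1185). The cause was not tested.

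The deviations of same-numbered libraries had correlations of -0.074 to 0.245, and the numbers were not taken as pairs. The highest, 0.245, was between replicate 3 of oxamate-treated parental and of vehicle-treated resistant cells. These libraries were also the richest of their groups in nuclear-retained RNA, and whether they share a cause was not tested. With a replicate block 4269 genes were higher and 4544 lower in parental cells after oxamate, PPP1R10 was at -1.91, and no direction of the 4 genes changed.

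Depth limited no value of the 4 genes, whose lowest count was 104. With 3 libraries a group, nothing on how independent the replicates were and an unknown length of treatment, the values describe these libraries.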
